A study of Homo sapiens with 12 samples.

Results

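The miR-15 and miR-16 family was followed through 2 human acute myeloid leukaemia lines with and without a short hairpin RNA against MUC1. Its members were taken by probe name: miR-15a-5p (hsa-miR-15a-5p in the table), miR-15b-5p (hsa-miR-15b-5p), miR-16-5p (hsa-miR-16-5p) and miR-195-5p (hsa-miR-195-5p), which are 4 of 798 human miRNA probes. MOLM-14 and THP-1 are established monocytic leukaemia lines. Each had been transduced with a lentivirus that carried either a MUC1-specific hairpin (called silenced here) or a scrambled control hairpin, with 3 samples in each of 4 groups, so that a lentiviral hairpin is common to all 12 samples. RNA came from transduced cells and was counted with NanoString barcoded probes, which count molecules without amplification. Neither the time after transduction nor the hairpin sequence is given in the sources used here, and no label states that a group's 3 samples came from independent cultures, so the tests reflect the spread among these samples, which may be technical. MUC1 itself was not measured here, so the silencing could not be checked.

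A miRNA guides the silencing complex to messenger RNAs that pair with its seed, which is bases 2 to 8, so miRNAs with 1 seed share many targets. The miR-15 and miR-16 family is known for repressing the survival factor BCL2 and cyclins that drive G1 progression, such as CCND1. Its hairpins lie in clusters: miR-15a with one copy of miR-16 on chromosome 13, a region often deleted in chronic lymphocytic leukaemia, miR-15b with a second copy of miR-16 on chromosome 3, and miR-195 with miR-497 on chromosome 17.

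The mature sequences are shown because the probes had to tell apart miRNAs that share their seed. They are the RefSeq mature miRNAs on GRCh38.p14, written 5′ to 3′, with the seed in capitals.
miR-15a-5p: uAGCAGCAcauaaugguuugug
miR-15b-5p: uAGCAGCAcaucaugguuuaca
miR-16-5p: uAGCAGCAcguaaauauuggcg
miR-195-5p: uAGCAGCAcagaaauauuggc

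All 4 carry the seed AGCAGCA. miR-15a-5p is encoded at chr13:50049167-50049188 on the minus strand in MIR15A, and MIR16-1 lies 57 bases away on the same strand. miR-15b-5p is encoded at chr3:160404607-160404628 on the plus strand in MIR15B, with MIR16-2 59 bases away. MIR16-1 and MIR16-2 give the same mature miR-16-5p, at chr13:50049027-50049048 and chr3:160404754-160404775, so its probe sums the output of both clusters. miR-195-5p lies at chr17:7017667-7017687 on the minus strand in MIR195. Over 22 bases miR-15a-5p and miR-15b-5p matched at 18 and differed by A12C, G20A, U21C and G22A, with positions counted from 1 at the 5′ end and the miR-15a-5p base first. miR-16-5p and miR-195-5p matched at 19 of 21 bases and differed by G10A and U11G, with the miR-16-5p base first, and miR-195-5p is 1 base shorter.

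Library totals ran from 9002 to 12613 counts in silenced and 17123 to 20418 in scrambled THP-1, which did not overlap. In MOLM-14 they ran from 11103 to 17281 in silenced and 12978 to 17527 in scrambled libraries. The number of probes at 30 counts or more was 14 to 32 in silenced THP-1, 54 to 65 in scrambled THP-1, 31 to 67 in scrambled MOLM-14 and 28 to 88 in silenced MOLM-14. A set of 630 probes stayed above 1 and under 30 counts in every library and serves as the background here, with library means of 10.1 to 15.1 counts. No difference beyond sampling noise was found between scrambled MOLM-14 samples 2 and 3 (a chi-square per degree of freedom of 1.08 over all probes and 1.23 over those tested), while the other pairs of their group differed by more, and they were counted as 1 sample in each mean ± SD. The 3 silenced THP-1 libraries were also close to one another, at 0.944 to 1.06 over the tested probes. With no pair of that group to set them against they were kept as 3 samples, whose spread is about that of counting alone. The second silenced MOLM-14 library was unlike its partners, with a chi-square per degree of freedom over the tested probes of 19.2 and 15.9 against samples 1 and 3, and 2.84 between those. In the source names silenced MOLM-14 samples 2 and 3 read MUC2 and MUC3, while their titles and transduction labels read MUC1. Of the myeloid markers, miR-223-3p reached 41 to 53 counts in scrambled THP-1 and 21 to 49 in scrambled MOLM-14, whereas miR-142-3p, typical of blood cells, stayed near background in all 12 libraries at 10 to 23 counts. The 3 erythroid markers measured, miR-451a, miR-144-3p and miR-486-3p, did not exceed 27 counts in any of the libraries.

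miR-15b-5p, the guide strand of MIR15B in the chromosome 3 cluster, was the member that fell in both lines. It had 161, 253 and 156 counts in the scrambled THP-1 libraries and 19, 16 and 18 in the silenced ones. The scrambled MOLM-14 libraries held 133, 244 and 241 counts and the silenced ones 59, 107 and 59. In each line every silenced library lay below every scrambled one. In THP-1 the library totals were lower in silenced samples too, and the counts of miR-16-5p and miR-107 also did not overlap there, without a call. The number of other probes without overlap was not counted in either line, so this separation is given as a description only. As a mean this was 190 ± 54.6 against 17.7 ± 1.53 counts in THP-1 (SD, n = 3 each) and 187.75 ± 77.4 (n = 2) against 75 ± 27.7 (n = 3) in MOLM-14. The order of levels was therefore scrambled THP-1 and scrambled MOLM-14, whose ranges overlapped, then silenced MOLM-14, then silenced THP-1. As a share of the library, miR-15b-5p held 0.861% to 1.24% of counts in scrambled THP-1, 1.02% to 1.51% in scrambled MOLM-14, 0.467% to 0.619% in silenced MOLM-14 and 0.139% to 0.200% in silenced THP-1.

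**Figure D1:**
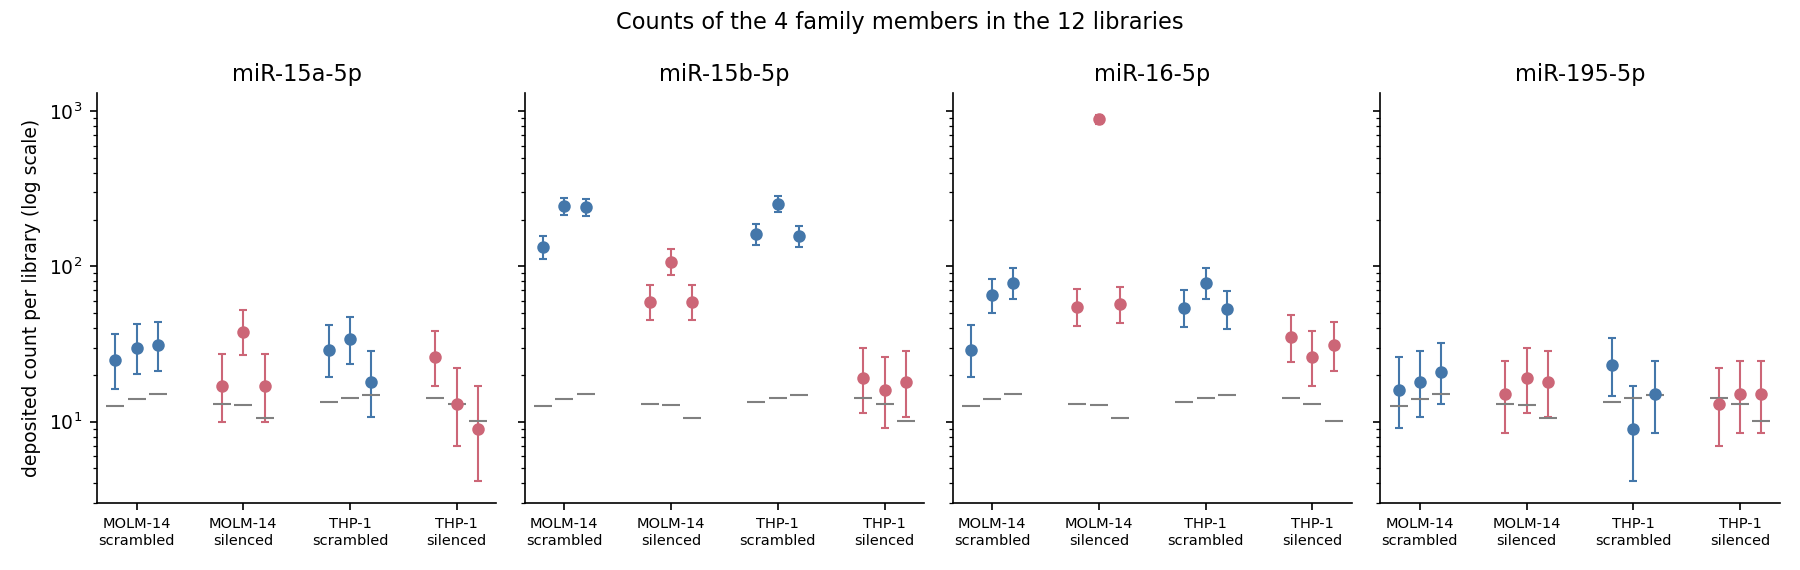
Deposited counts of each member (y axis, log scale) in the 12 libraries by group, as 1 point per library with its exact 95% Poisson interval, which covers counting error only. Blue points are scrambled, red points silenced, and grey dashes the mean of the 630 background probes in that library, which include miR-195-5p. miR-15b-5p dropped from 156 to 253 counts to 16 to 19 in THP-1, miR-16-5p reached 888 in a single silenced MOLM-14 library, and miR-195-5p lay near the dashes throughout.

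Counts were scaled with TMM factors over the 67 probes that reached 30 counts in at least 3 libraries, and all 4 groups were fitted in a single edgeR quasi-likelihood model with Benjamini-Hochberg adjustment over those 67. miR-15a-5p, miR-15b-5p and miR-16-5p passed that minimum, with 4, 9 and 10 libraries at 30 counts or more, and miR-195-5p did not, with 0. In THP-1 the log2 fold change of miR-15b-5p was -2.63 ± 0.24 (SE, edgeR adjusted p = 2.4e-06), and it was the only member of the 3 tested that was called there, where 38.8% of all tested probes were called. In MOLM-14 it was -1.20 ± 0.22 (edgeR adjusted p = 0.00215), with 16.4% of tested probes called. The fit took scrambled MOLM-14 samples 2 and 3 as separate samples, and with them averaged into 1 the miR-15b-5p call in MOLM-14 was kept. In the mean of the lines miR-15b-5p fell by 1.91 ± 0.16 (edgeR adjusted p = 1.77e-06), again the only tested member called, with 31.3% of probes called. In bulk RNA such as this, fewer cells that hold a miRNA and less of it per cell cannot be told apart.

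The fall in THP-1 ended at the background, so its size is uncertain. In the 3 silenced THP-1 libraries 80.3%, 72.9% and 94.9% of background probes lay below miR-15b-5p, whereas in each of the 3 scrambled THP-1 and 6 MOLM-14 libraries all 630 did. The latter follows from the limit of 30 counts on background probes, as miR-15b-5p had 59 counts or more in those libraries. With 10 counts subtracted from every value the THP-1 log2 fold change was -3.50 ± 0.29, and under scaling to the background probes -3.22 ± 0.34, against a median over the 67 probes that moved from -0.03 to -0.61 with that scaling. The summed counts of the 4 myeloid markers, not scaled for library totals, were 156 to 165 in scrambled and 55 to 83 in silenced THP-1. In MOLM-14 they were 127 to 188 in scrambled and 103 to 128 in silenced libraries, and the groups overlapped. Both markers that passed the count minimum fell in THP-1, miR-223-3p by 1.63 and miR-155-5p by 0.75 on the log2 scale (edgeR adjusted p = 0.00103 and 0.00769), and neither was called in MOLM-14. miR-142-3p and miR-146a-5p stayed under the minimum, and their groups overlapped in THP-1. The part of these markers in the miR-15b-5p result was not tested.

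The fall of miR-15b-5p was larger in THP-1 by the test of the difference itself. The THP-1 effect minus the MOLM-14 effect was -1.42 ± 0.31 on the log2 scale (edgeR adjusted p = 0.00492), and 23.9% of the 67 tested probes were called in that comparison. Without scrambled THP-1 replicate 2, the library with 253 counts, the difference was -0.99 and lost the call (edgeR adjusted p = 0.0535). The starting levels of the lines gave no call for any tested member. Scrambled THP-1 minus scrambled MOLM-14 was -0.25 ± 0.21 for miR-15b-5p, -0.25 ± 0.29 for miR-15a-5p and 0.00 ± 0.79 for miR-16-5p, with 8.96% of probes called.

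miR-15a-5p, the chromosome 13 relative of miR-15b-5p, was a weak probe. Its counts were 25, 30 and 31 in scrambled and 17, 38 and 17 in silenced MOLM-14. They were 29, 34 and 18 in scrambled and 26, 13 and 9 in silenced THP-1. The groups overlapped in both lines. In MOLM-14 the mean was 27.75 ± 3.89 counts in scrambled (SD, n = 2) and 24 ± 12.1 in silenced libraries (n = 3). In THP-1 it was 27 ± 8.19 counts in scrambled and 16 ± 8.89 in silenced libraries (n = 3 each). In 3 of the 6 silenced libraries over 90% of background probes lay below it, and in silenced THP-1 replicates 2 and 3 the shares were 48.9% and 38.4%. The fitted log2 fold change was -0.04 (95% interval -0.69 to 0.61, edgeR adjusted p = 0.967) in MOLM-14 and -0.02 (-0.71 to 0.66, edgeR adjusted p = 0.938) in THP-1. Under background scaling the THP-1 value was -0.61 ± 0.37 (edgeR adjusted p = 0.226), the same as the median of all tested probes there. A change within these intervals was not detectable at this depth.

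The members of the paired clusters were then compared within each library, where no scaling between libraries enters. The ratio of miR-15b-5p to miR-15a-5p counts was 5.32, 8.13 and 7.77 in scrambled MOLM-14 and 3.47, 2.82 and 3.47 in silenced MOLM-14. It was 5.55, 7.44 and 8.67 in scrambled THP-1 and 0.731, 1.23 and 2.0 in silenced THP-1. In all 6 silenced libraries the ratio lay below every scrambled library of the same line. Silenced minus scrambled, the mean log2 ratio was -1.10 in MOLM-14 and -2.55 in THP-1, and -1.82 over both lines. An exact permutation test of that mean, with hairpin labels exchanged within each line (400 arrangements, two-sided), gave p = 0.005, which is the smallest p the design allows. Within a single line 3 samples against 3 cannot go below 0.1, the value found in each. These counts of arrangements take all 12 libraries as separate samples. With scrambled MOLM-14 samples 2 and 3 averaged into 1 the mean was -1.78 (200 arrangements, exact permutation p = 0.005), and with the silenced THP-1 libraries averaged into 1 it was -1.89 (80 arrangements, exact permutation p = 0.0125). Both p-values are the smallest that their numbers of arrangements allow, so they show full separation of the groups and not a graded strength. Only this pair of probes was tested. With 10 added to both counts the difference was -1.70 (exact permutation p = 0.005). The ratio shows that the 2 probes changed unequally, and not that miR-15a-5p stayed level. In silenced THP-1 both probes lay near background, as the shares above show. The denominator miR-15a-5p was also low in silenced MOLM-14 replicates 1 and 3, at 17 counts each, and in scrambled THP-1 replicate 3, at 18.

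**Figure D2:**
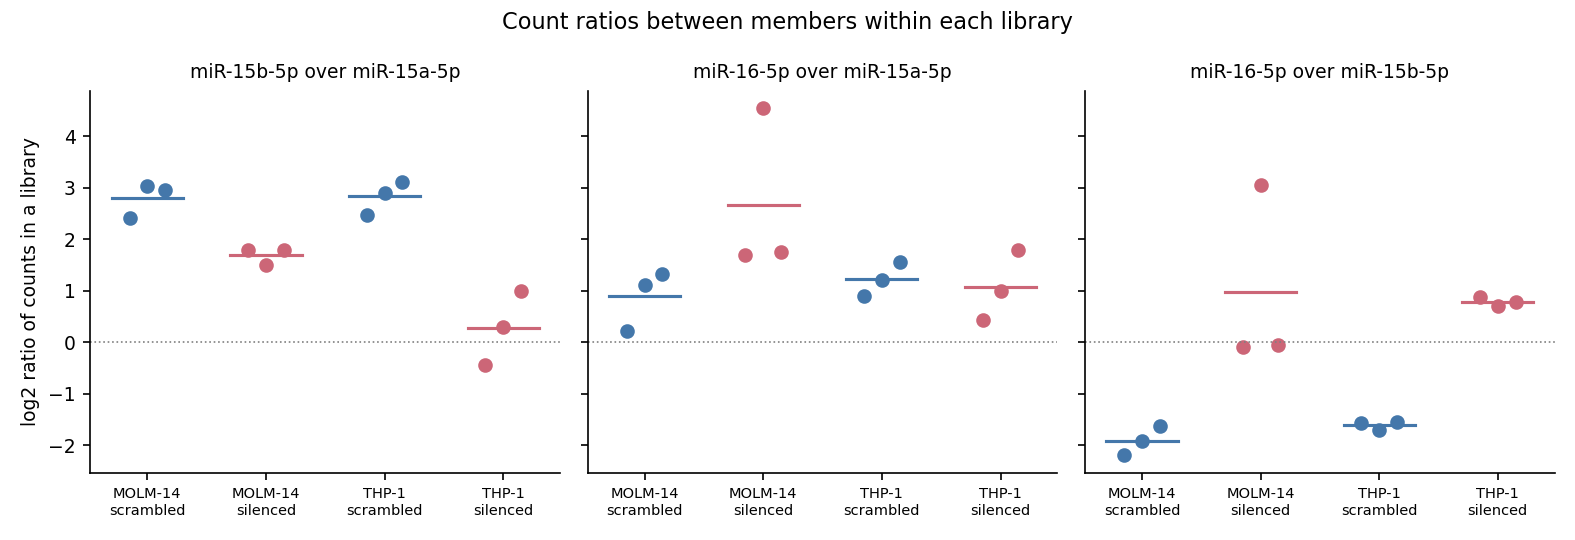
Log2 ratio of counts between members (y axis) within each library, as 1 point per library, with the group mean as a line. Blue is scrambled and red silenced. The ratio of miR-15b-5p to miR-15a-5p was lower in all 6 silenced libraries than in any scrambled library of its line, and that of miR-16-5p to miR-15b-5p was higher in all 6.

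miR-16-5p, the product of both clusters, did not follow miR-15b-5p. The scrambled MOLM-14 libraries had 29, 65 and 78 counts and the silenced ones 55, 888 and 57. The scrambled THP-1 libraries had 54, 78 and 53 counts and the silenced ones 35, 26 and 31. Silenced MOLM-14 replicate 2 was far above the other 11 libraries, which ran from 26 to 78, and its exact 95% Poisson interval was 831 to 948 counts. The other silenced MOLM-14 libraries lay inside the scrambled range. In THP-1 all silenced counts lay below all scrambled ones, but as a share of the library the groups overlapped, at 0.226% to 0.344% against 0.293% to 0.382%. The group means were 61.7 ± 14.2 in scrambled and 30.7 ± 4.51 in silenced THP-1 (SD, n = 3 each), 50.25 ± 30.1 (n = 2) in scrambled MOLM-14 and 333 ± 480 (n = 3) in silenced MOLM-14.

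The fit called miR-16-5p higher in MOLM-14 at 2.65 ± 0.80 on the log2 scale (edgeR adjusted p = 0.0410). This made it the second of the 3 tested members called there, where 16.4% of all tested probes were called. The miR-16-5p call rested on 1 library: without silenced replicate 2 the value was 0.40 ± 0.23 (edgeR adjusted p = 0.311). Nor was it firm otherwise, as 20 of 26 other settings with an adjusted p lost it. Robust dispersion estimates were among them, at an unchanged 2.65 ± 0.93 (edgeR adjusted p = 0.0995). In THP-1 miR-16-5p was at -0.22 ± 0.81 (edgeR adjusted p = 0.855), and without the 1 high library of the other line it was -0.23 ± 0.22 (edgeR adjusted p = 0.410). The mean of the lines (1.22 ± 0.56, edgeR adjusted p = 0.121) and the difference between them (-2.87 ± 1.13, edgeR adjusted p = 0.0769) were not called, and without the same library they were 0.09 and -0.63.

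**Figure D3:**
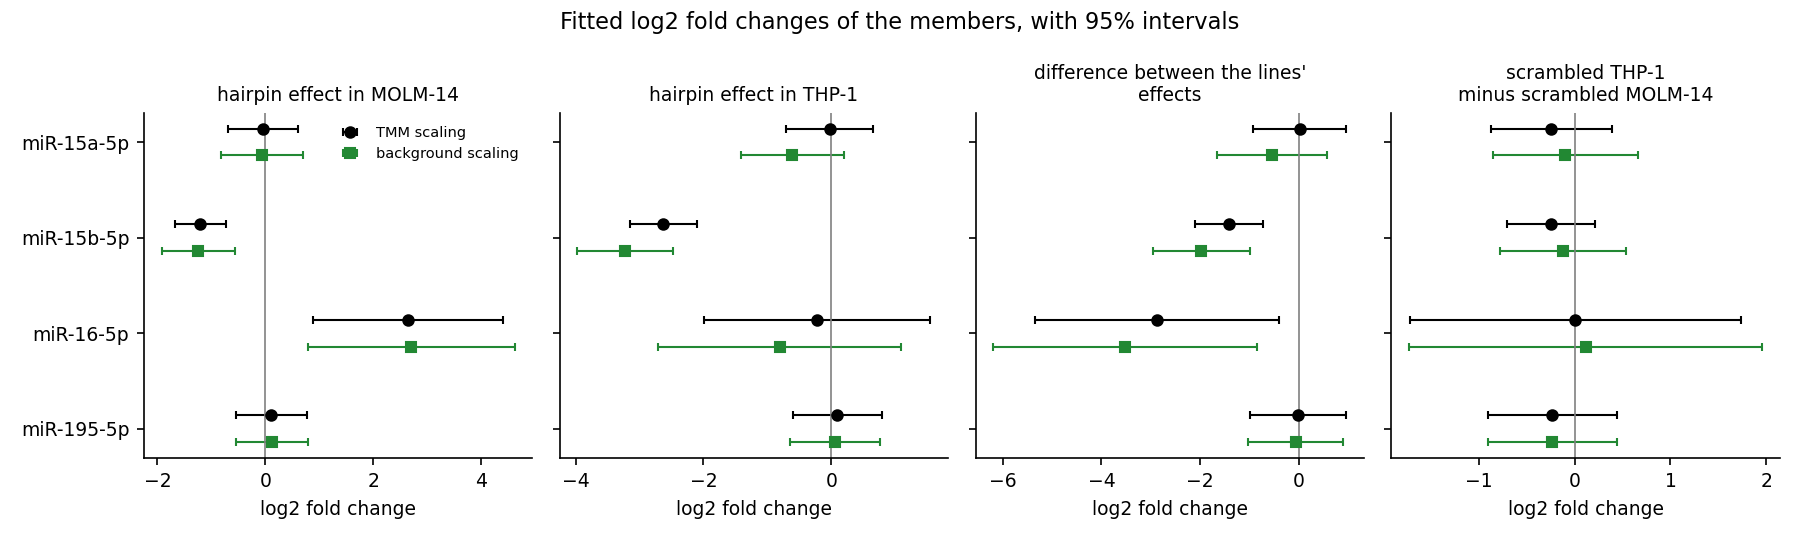
Fitted log2 fold changes (x axis) of the 4 members in 4 comparisons, with 95% intervals, from the edgeR fit with TMM scaling (black circles) and with scaling to the background probes (green squares). The x ranges differ between panels, and miR-195-5p comes from the fit of all 798 probes. miR-15b-5p lay below 0 in both lines, at -1.20 and -2.63 with TMM scaling, and miR-16-5p had the widest intervals.

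Relative to its cluster partner miR-15b-5p, miR-16-5p was higher in the silenced libraries of both lines, and silenced MOLM-14 replicate 2 stood apart here too. The ratio of miR-16-5p to miR-15b-5p counts was 0.335, 0.308 and 0.340 in scrambled THP-1 and 1.84, 1.63 and 1.72 in silenced THP-1. It was 0.218, 0.266 and 0.324 in scrambled MOLM-14 and 0.932, 8.30 and 0.966 in silenced MOLM-14. The groups did not overlap in either line, also with silenced MOLM-14 replicate 2 set aside. The ratio of miR-16-5p to miR-15a-5p overlapped between the groups in THP-1 (1.86 to 2.94 scrambled, 1.35 to 3.44 silenced). In MOLM-14 it was 1.16 to 2.52 in scrambled and 3.24 to 23.4 in silenced libraries. These ratios are given as a description and were not tested, and in silenced THP-1 their denominators lay near background. The miR-15a-5p denominator was low elsewhere too, at 17 counts in silenced MOLM-14 replicates 1 and 3 and 18 in scrambled THP-1 replicate 3. In those libraries 78.25%, 92.54% and 71.9% of background probes lay below it.

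The single high library was looked at probe by probe, with probes chosen after their values were seen. Silenced MOLM-14 replicate 2 held 88 probes at 30 counts or more, against 33 and 28 in replicates 1 and 3. Of those 88 probes, 33 lay at more than 3 times the mean of replicates 1 and 3, and 7 at more than 10 times, while 10 lay below that mean. The 88 were selected by their count in replicate 2 itself, which favours high ratios. Probes selected by replicate 1 or 3 were not counted in the same way. miR-16-5p was 15.9 times the mean of replicates 1 and 3 and the most abundant probe of the library, with 5.14% of its counts. By ratio it held rank 3 of the 88, after miR-1246 (188 against 1 and 1) and the joint probe miR-548aa/miR-548t-3p (99 against 1 and 1). miR-1246 was not high in this library alone, as it reached 224 counts in another, whereas the joint probe did not exceed 1 elsewhere. miR-877-5p had 350 counts there against 21 and 27, miR-1290 had 303 against 20 and 29, and miR-548n had 190 against 14 and 12. The other family members moved little by comparison: miR-15a-5p was at 2.24 times and miR-15b-5p at 1.81 times the mean of its group partners. miR-195-5p, which differs from miR-16-5p at 2 of 21 bases, had 19 counts there, against 15 and 18. The erythroid markers were near background in that library too, with miR-451a at 13 counts, miR-144-3p at 11 and miR-486-3p at 9.

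**Figure D4:**
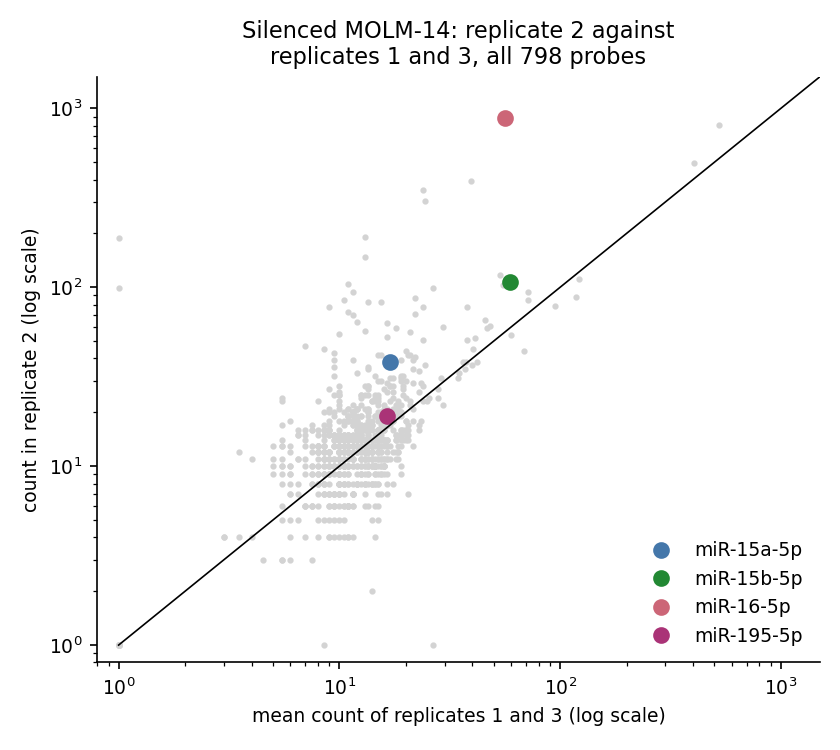
Count of each of the 798 probes in silenced MOLM-14 replicate 2 (y axis, log scale) against its mean in replicates 1 and 3 (x axis, log scale), with the line of equal counts. Coloured points are the 4 members. miR-16-5p lay farthest from the line among them, at 888 against 55 and 57, and miR-195-5p lay close to it, at 19 against 15 and 18.

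miR-195-5p, of the chromosome 17 cluster, stayed at 9 to 23 counts. It is therefore itself 1 of the 630 probes that serve as the background, and its low level is not a separate finding. It had 16, 18 and 21 counts in scrambled and 15, 19 and 18 in silenced MOLM-14. In THP-1 it had 23, 9 and 15 counts in scrambled and 13, 15 and 15 in silenced libraries. All groups overlapped, and between 9.54% and 96.5% of the other background probes lay below it in a library. A fit of all 798 probes gave 0.11 (95% interval -0.55 to 0.77, edgeR adjusted p = 0.991) in MOLM-14 and 0.09 (-0.61 to 0.80, edgeR adjusted p = 0.999) in THP-1. No change was detectable at this depth.

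Other probes of the same kind were as weak. By name 688 of the 798 probes matched a RefSeq mature sequence, and 6 of these carry the seed of miR-16-5p: the 4 members, miR-424-5p and miR-497-5p. miR-424-5p, known from monocyte differentiation, ran from 9 to 22 counts over the 12 libraries, and miR-497-5p, the cluster partner of miR-195-5p, from 9 to 30. miR-503-5p, the cluster partner of miR-424-5p with a seed that differs in its last base, ran from 4 to 25. None of the 3 reached the count minimum. Of miR-103a-3p and miR-107, whose seed is offset by 1 base, miR-103a-3p stayed at 7 to 19 counts. miR-107 passed the minimum with 36 to 48 counts in scrambled THP-1 and 17 to 30 in silenced THP-1, so that its counts there did not overlap. The library totals there did not overlap either. miR-107 was not called in either line (-0.04 ± 0.21 in THP-1, edgeR adjusted p = 0.911, and 0.29 ± 0.22 in MOLM-14, edgeR adjusted p = 0.425). In the fit of all 798 probes its THP-1 value was -0.58 ± 0.23 (edgeR adjusted p = 0.308). Opposite (3p) arms of the member hairpins were looked up by name, and none was among the 798 probes.

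Across the 12 libraries the members shared little of their pattern, by Pearson correlation of log2 scaled counts, which is a description over libraries that share groups and depth. miR-15b-5p correlated with miR-15a-5p at 0.29 and with miR-16-5p at 0.12, and miR-15a-5p with miR-16-5p at 0.44. Over the 11 libraries without silenced MOLM-14 replicate 2 these were 0.31, 0.29 and -0.19. The 5 probes closest to miR-15b-5p were miR-191-5p (0.95), let-7d-5p (0.95), miR-423-5p (0.93), let-7c-5p (0.92) and let-7a-5p (0.92), and these correlations were 0.93 to 0.97 over the 11 libraries. The probes closest to miR-16-5p were miR-1290 (0.88), miR-548g-3p (0.82), miR-4531 (0.73), the joint probe miR-4454/miR-7975 (0.66) and miR-574-5p (0.61). Without silenced MOLM-14 replicate 2 their correlations were -0.26, 0.20, -0.28, 0.67 and -0.20, so that in 4 of the 5 the likeness rested on that library. For miR-15a-5p the closest were miR-6724-5p (0.66), miR-548y (0.55), miR-1246 (0.50), miR-1290 (0.49) and let-7g-5p (0.46), which in counts this low is no more than a description. Without that library these were 0.52, 0.47, 0.33, 0.07 and 0.51.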

How the data were processed

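The authors deposited a table of counts for 798 miRNA probes in 12 samples, measured with a NanoString array per the labels' protocols. The values are whole numbers of at least 1 with differing totals. No source used here names the counting software, a background correction or a lane scaling. Samples were grouped by line and hairpin from their titles.

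The 67 probes that reached 30 counts in 3 or more samples were fitted with TMM scaling as 4 group means in edgeR 4.0.16 (R 4.3.3), with a threshold of 0.05 on Benjamini-Hochberg adjusted p-values. miR-195-5p was fitted with all probes. Ratios within libraries were tested by exact permutation. Alternatives were DESeq2 1.42.0, limma 3.58.1 on log2 counts, other scalings, filters and sample sets, a replicate block and leaving out each library. Robust dispersions, 2 other sample sets and the ratio test with close libraries averaged were added after seeing the data. The fit was also run on simulated counts with a single fixed dispersion. These held no outlying library such as silenced MOLM-14 replicate 2, so that case was not covered. Members, lists and most alternatives were chosen with earlier results of these data known. Named were the 4 members, probes with their seed or an offset seed, and for each tested member the 5 probes of most similar pattern. Deviations of same-numbered replicates correlated above 0.1 in 2 of 3 pairs in MOLM-14 and 1 of 3 in THP-1, not in every pair, so they were not paired. Intervals on counts cover counting error only.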

Additional observations from a re-analysis of the deposited data

Results flagged for a closer look

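miR-15b-5p responded to the MUC1 hairpin more strongly in THP-1 than in MOLM-14, and an interaction test put the gap (THP-1 minus MOLM-14) at -1.42 on the log2 scale. The difference was -1.98 under background scaling and -2.29 with 10 counts subtracted. The call was lost without scrambled THP-1 replicate 2 (-0.99), and the silenced THP-1 counts of 16 to 19 lay near background, which makes the size uncertain.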

How the results depend on the processing

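The miR-15b-5p effect kept its direction and its call in all 27 other settings in MOLM-14 (-1.45 to -0.96) and in THP-1 (-3.50 to -1.96), and in all 26 for the mean of the lines (-2.35 to -1.46). Its difference between the lines ran from -1.59 to -0.99 with 1 library left out and lost the call at -0.99. The log2 ratio of miR-15b-5p to miR-15a-5p ran from -2.004 to -1.64 with 1 library left out and stayed called. The miR-16-5p rise in MOLM-14 lost its call with limma (1.65 and 1.53 with pseudocounts of 1 and 10), background scaling (2.71), no count minimum (2.66), only the groups compared (2.67), the replicate block (2.11), the averaged scrambled MOLM-14 pair (2.76), robust dispersion (2.65), silenced THP-1 averaged into 1 (2.63) and silenced MOLM-14 replicates 2 and 3 both left out (0.31). With 1 library left out it ran from 0.40 to 3.13, called only without silenced MOLM-14 replicate 1 or 3. DESeq2 gave no adjusted p for miR-16-5p. The miR-16-5p difference between the lines became called under background scaling (-3.52) and without silenced MOLM-14 replicate 1 or 3 (leave-one-out range -3.35 to -0.63), and the mean of the lines with a minimum of 50 counts (1.68) and without the same replicates (0.0858 to 1.46).

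Signs of uncalled effects also turned, in each case without a call. miR-15a-5p in THP-1 was 0.045 with DESeq2 and 0.069 with top 100 scaling, and -0.38 to 0.37 with 1 library left out (-0.36 to 0.12 in MOLM-14). miR-16-5p in THP-1 was 0.45 with a minimum of 50 counts and -0.39 to 0.17 with 1 library left out. Between the scrambled lines it was -0.12 with total count scaling, -0.0098 with silenced MOLM-14 replicates 2 and 3 left out and -0.19 to 0.18 with 1 library left out. miR-195-5p in MOLM-14 was -0.16 without silenced replicates 2 and 3, and ran from -0.0034 to 0.24 with 1 library left out (-0.19 to 0.53 in THP-1).

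Calls between the scrambled lines numbered 6, against 3 with DESeq2 and with limma (pseudocount 10), 2 with 10 counts subtracted, no count minimum, the averaged scrambled pair and robust dispersion, 12 with only these groups, 14 without silenced MOLM-14 replicates 2 and 3, and 2 to 13 with 1 library left out. For the difference between the lines they numbered 16, against 26 under background scaling, 10 with silenced THP-1 averaged and 14 to 28 with 1 library left out. In THP-1 they numbered 26, against 14 with silenced THP-1 averaged and 20 to 39 with 1 library left out. In MOLM-14 they numbered 11, against 9 to 18 with 1 library left out. Background scaling moved the split of calls in THP-1 from 10 higher and 16 lower to 2 and 30, in MOLM-14 from 5 and 6 to 3 and 6, in the mean of the lines from 7 and 14 to 2 and 22, and in the difference from 4 and 12 to 2 and 24. It moved the median of the tested probes in the mean from 0.10 to -0.20 and in the difference from -0.14 to -0.68. Leaving out scrambled THP-1 replicate 1 or 3 moved the THP-1 split the other way, to 20 higher and 14 lower and to 23 and 16, and leaving out silenced THP-1 replicate 2 gave 4 and 16. The causes of these changes were not tested. A fit that leaves 1 sample in a group assumes that this sample varies like the other groups. With the replicate block the calls in MOLM-14 numbered 14 and those in THP-1 25, and no other member call changed. Same-numbered samples had deviations correlated at 0.36, 0.41 and -0.22 in MOLM-14 and 0.14, -0.41 and -0.23 in THP-1. Depth limits miR-15a-5p, miR-195-5p and, in silenced THP-1, miR-15b-5p, which lay near background.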
